A study of Mus musculus with 4 samples.

Results

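Bile acid synthesis and its control were examined in mouse liver through 10 genes, Cyp7a1, Cyp7b1, Cyp8b1, Cyp27a1, Hsd3b7, Baat, Slc27a5, Slc10a1, Nr1h4 and Nr0b2, chosen by name among the 36161 gene names of the array. They were measured by 12 of the 55681 probes that were not controls. Slc27a5 and Slc10a1 had 2 probes each and the other 8 genes had 1. Cyp27a1 was printed as 10 spots of the same probe and every other probe as a single spot, which gave 21 spots per array, none with an outlier flag. All 12 probes were well above background on all 4 arrays.

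The study compared microsomic (M) mice, whose weight lay under a gender-specific limit of the colony, with control (C) littermates of ordinary weight. Here 4 arrays were analysed, 1 for each group. The M groups are MF for females and MM for males, and their C counterparts are CF and CM. All were whole liver of the inbred strain C57BL/6J at embryonic day 20 according to the sample labels, whereas the study's methods name newborn C57BL/6 N mice. The labels name no engineered allele and no treatment for any group. Whether an array held the liver of 1 animal or of several is not given in the sources used here. With 1 array per group, a difference between 2 arrays has no biological error and no p-value is given for it.

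Bile acids are made in hepatocytes from cholesterol and are the main route by which cholesterol leaves the body. In the classic pathway Cyp7a1 hydroxylates cholesterol at the rate-limiting step, Hsd3b7 rearranges the ring, and Cyp8b1 directs the product to cholic acid. In the alternative pathway Cyp27a1 oxidises the side chain first and Cyp7b1 hydroxylates the ring afterwards. The side chain is shortened in peroxisomes, Slc27a5 activates the acid with coenzyme A and Baat joins it to taurine or glycine. Slc10a1 takes conjugated bile acids back up from portal blood. The nuclear receptor Nr1h4 (FXR) senses bile acids and induces Nr0b2 (SHP), a repressor that dampens Cyp7a1 and Cyp8b1, which otherwise depend on Nr5a2 (LRH-1).

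The stretches that the array read are shown for 6 of the genes, each as the 60-base probe from 5′ to 3′ in the sense of the transcript, because a value below refers to this stretch and not to the whole transcript. For Slc27a5 and Slc10a1 the dimmer of their probes is shown.

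Cyp8b1: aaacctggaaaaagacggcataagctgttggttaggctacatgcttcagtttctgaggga
Cyp27a1: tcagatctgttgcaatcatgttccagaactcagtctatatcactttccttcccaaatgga
Baat: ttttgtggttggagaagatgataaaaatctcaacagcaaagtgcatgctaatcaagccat
Slc27a5: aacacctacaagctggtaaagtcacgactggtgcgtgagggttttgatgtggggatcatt
Slc10a1: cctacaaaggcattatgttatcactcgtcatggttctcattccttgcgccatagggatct
Nr0b2: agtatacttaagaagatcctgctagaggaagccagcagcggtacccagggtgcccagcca

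In the array's mouse build (mm9) these probes lie at chr9:121824595-121824654 for Cyp8b1, chr1:74782203-74782262 for Cyp27a1, chr4:49502933-49502992 for Baat, chr7:13573924-13573983 for Slc27a5, chr12:82061470-82061529 for Slc10a1 and chr4:133109694-133109753 for Nr0b2. The probes of Cyp27a1 and Nr0b2 are on the plus strand and the other 4 on the minus strand. The remaining probes lie at chr4:6193456-6193515 for Cyp7a1, chr3:17972286-17972345 for Cyp7b1, chr7:134947251-134947310 for Hsd3b7, chr10:88917222-88917281 for Nr1h4, chr7:13573701-13573760 for the brighter Slc27a5 probe and chr12:82056539-82056598 for the brighter Slc10a1 probe. Of these, Hsd3b7 alone is on the plus strand. Whether a probe falls in a coding or an untranslated part of its transcript was not analysed here.

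The brighter Slc10a1 probe is a case of its own. Its bases 10 to 39 are shown because their letters, all printed in capitals, resemble the B1 element, a short interspersed repeat of the mouse genome.

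brighter Slc10a1 probe: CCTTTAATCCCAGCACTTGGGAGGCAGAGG

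A stretch of 16 bases of this probe occurred, on either strand, in 46 of 32851 promoter sequences of RefSeq (build GRCm38.p6, 300 bases each). Each of the other 11 member probes had such a stretch in 0 or 1 promoter. It also shared 20 bases with 3 other probes of the array (Galns, Nxnl1 and Hist1h4i), all on the opposite strand, whereas the other 11 member probes shared such a stretch with none.

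Levels are log2 values of the processed signal relative to the 75th percentile of that array, so 0 is the level of a probe at the 75th percentile and 1 unit is a doubling. That percentile stood at 676 for CF, 893 for MF, 628 for CM and 925 for MM, and 57.7%, 63.7%, 56.1% and 65.3% of their spots were well above background. Dividing by it lowered the microsomic signal by 0.40 against the control in females and by 0.56 in males on the log2 scale. The scanner software had already corrected each signal for its place on the array, by between -0.84 and 1.16 on the log2 scale over 14781 bright spots, which is as large as most differences below. Over 188 probes printed as 9 or more spots, the median SD between spots of the same probe was 0.19 to 0.27 with that correction and 0.35 to 0.55 before it. From these spot SDs, a difference between single spots of 2 arrays has a technical SD of 0.34 in females and 0.33 in males, which leaves out the spread between animals.

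**Figure D1:**
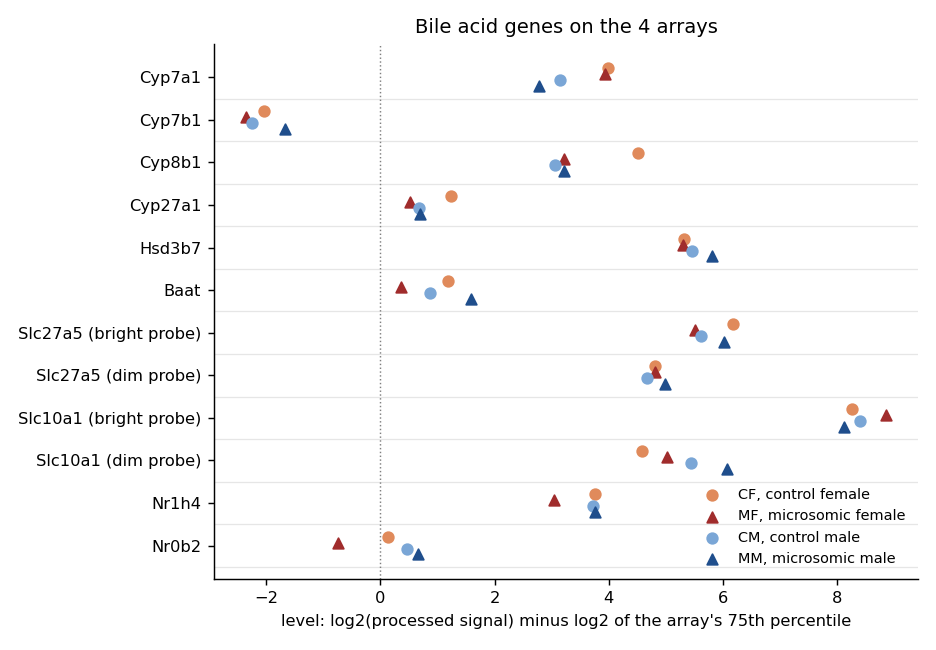
Level of each member probe on the 4 arrays, as log2 of the processed signal relative to the 75th percentile of its array (horizontal axis). Circles are control and triangles microsomic livers, in warm colours for females and blue for males, 1 point per array. For Cyp8b1 and Cyp27a1 the control female array lies to the right of the other 3, and for Nr1h4 and Nr0b2 the microsomic female array lies to the left of the other 3.

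The 3 genes of the classic pathway behaved differently. Cyp7a1 had a level of 3.94 on MF, 3.98 on CF, 2.78 on MM and 3.14 on CM. Both female arrays were thus above both male arrays, by 0.84 in the controls and 1.16 in the microsomic livers. M and C differed by -0.05 in females and by -0.37 in males. The difference between M and C depended on the processing, from -0.59 to 0.36 in females and from -0.48 to 0.19 in males. Hsd3b7, with a level of 5.30 on MF, 5.32 on CF, 5.81 on MM and 5.47 on CM, was among the brighter members and differed by -0.02 in females and 0.34 in males. Its difference depended on the processing, from -0.54 to 0.80 in females and from -0.35 to 0.99 in males, with 0.80 before the spatial correction.

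Cyp8b1, the sterol 12-alpha-hydroxylase that sets the share of cholic acid, had the largest difference of the 10 genes. Its level was 3.22 on MF, 4.51 on CF, 3.21 on MM and 3.06 on CM. The control female array stood apart from the other 3, which lay within 0.16 of each other. The level was therefore 2.44-fold lower on MF than on CF, a log2 difference of -1.29, while MM and CM differed by 0.15. Between the controls, CF was 2.73-fold above CM. Over the settings tried the female difference ran from -1.85 to -0.89 and the male difference from 0.03 to 0.71. Before the spatial correction they were -1.52 and 0.64, so the closeness of the male arrays depended on the processing.

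In the alternative pathway, Cyp27a1, the mitochondrial sterol 27-hydroxylase, showed a like pattern at a lower level, 0.51 on MF, 1.23 on CF, 0.70 on MM and 0.67 on CM. It is the only member for which the array itself carried repeated spots. The SD over its 10 spots was 0.38 on MF, 0.22 on CF, 0.19 on MM and 0.50 on CM. Spot by spot at the same place on the array, MF was below CF in 10 of 10 spots, by between -1.5 and -0.31 and by -0.72 ± 0.35 on average (SD over 10 spots). MM minus CM ran from -0.67 to 1.11, with 6 spots above 0 and 4 below it. Spots of 1 array share the same labelled RNA, so this spread is that of the array and not of animals. Cyp7b1, the oxysterol 7-alpha-hydroxylase, was the dimmest member at -2.36 on MF, -2.05 on CF, -1.68 on MM and -2.25 on CM. Its difference was -0.31 in females and 0.57 in males, 1.49-fold, just inside the 1.5-fold limit. Over the settings tried it ran from -0.53 to 0.09 in females and from 0.55 to 1.16 in males. The male value was past 1.5-fold under several of them, such as median centring (0.81) and quantile (0.78).

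**Figure D2:**
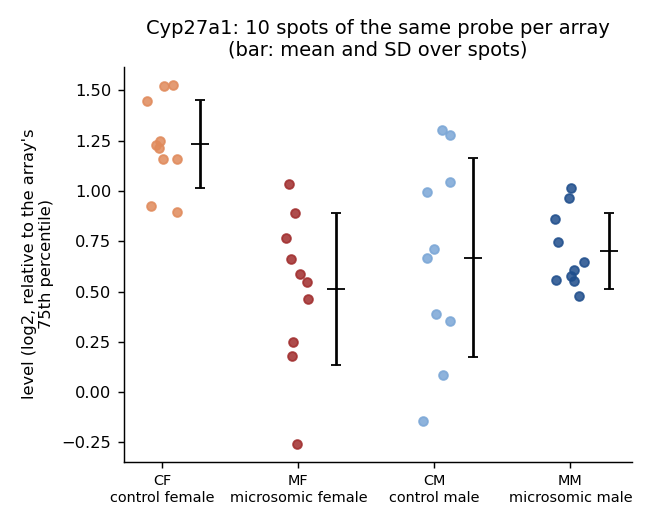
Level of the 10 spots of the Cyp27a1 probe on each array (log2 relative to the 75th percentile of the array), with the mean and the SD over spots as a bar beside the points. The control female spots lie between 0.90 and 1.53, and the spots of the microsomic female array between -0.26 and 1.03, so the 2 sets overlap in part although every MF spot was below the CF spot at the same place.

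Conjugation was read through Slc27a5 and Baat. Baat had a level of 0.36 on MF, 1.18 on CF, 1.58 on MM and 0.87 on CM. It was lower on MF than on CF by 1.77-fold and higher on MM than on CM by 1.64-fold, and was the only member past 1.5-fold in opposite directions in females and males. The brighter Slc27a5 probe gave 5.51 on MF, 6.18 on CF, 6.02 on MM and 5.61 on CM, so that MF was 1.59-fold below CF and MM 1.33-fold above CM. The dimmer probe gave 4.80 on both MF and CF, 4.99 on MM and 4.67 on CM. With the spatial correction the probes of Slc27a5 hence disagreed in females, where the dimmer probe showed no difference, and had the same sign in males. Before that correction the brighter probe gave -0.21 in females and 0.10 in males. The correction moved the dimmer probe by 0.23 on MF, -0.13 on CF, -0.23 on MM and 0.65 on CM. How far the probes disagreed in either sex thus depended on the processing.

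For Slc10a1 (NTCP), the sodium-dependent uptake carrier, the probes also disagreed. The brighter probe, which holds the repeat stretch, had the highest levels of all members, 8.86 on MF, 8.26 on CF, 8.13 on MM and 8.40 on CM. It put MF 1.52-fold above CF and MM 1.21-fold below CM. The dimmer probe had 5.03 on MF, 4.59 on CF, 6.07 on MM and 5.44 on CM. By this probe both microsomic arrays were above their controls, 1.35-fold in females and 1.55-fold in males, and both male arrays were above both female arrays. On the CM array the spatial correction raised the brighter probe by 0.71, whereas on the other 3 arrays it moved it by -0.20 to 0.01. Without that correction the brighter probe gave 0.45 in females and 0.43 in males. The correction moved the dimmer probe by -0.17 on MF, 0.65 on CF, 0.27 on MM and -0.45 on CM. Its folds and the order of its arrays thus depended on the processing as well.

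Both regulators were lower on MF than on the other 3 arrays. The level of Nr1h4 was 3.04 on MF, 3.75 on CF, 3.77 on MM and 3.72 on CM, 1.64-fold lower on MF than on CF, with the other 3 arrays within 0.05 of each other. The level of Nr0b2, its target, was -0.74 on MF, 0.14 on CF, 0.65 on MM and 0.46 on CM, 1.84-fold lower on MF than on CF. In males the differences were 0.05 and 0.19. Before the spatial correction Nr1h4 differed by -0.42 in females and -0.74 in males, and Nr0b2 by -1.06 and -0.75. The closeness of the male arrays thus depended on the processing.

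**Figure D3:**
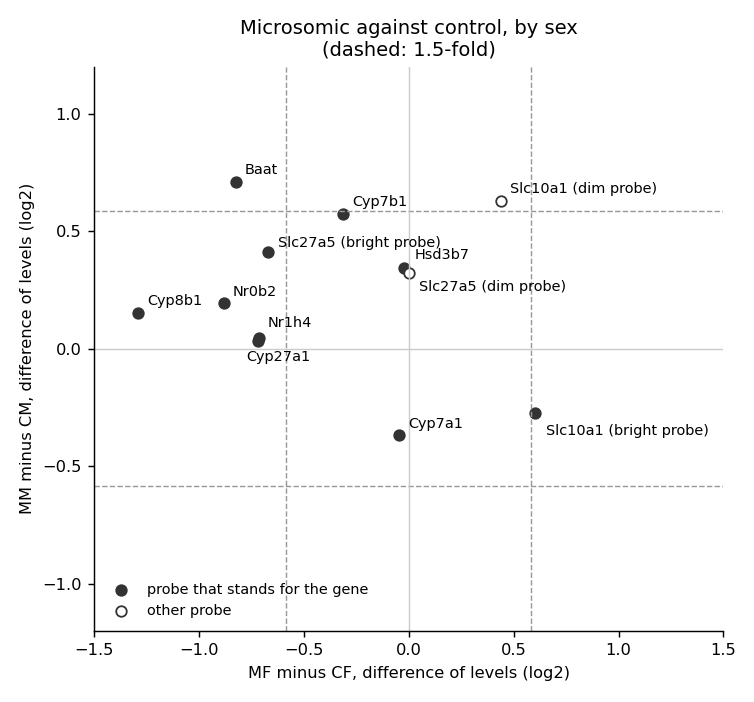
Difference of levels between microsomic and control in females (horizontal axis, log2) and in males (vertical axis, log2) for the 12 member probes. Filled points are the probes that stand for a gene and open points the second probes of Slc27a5 and Slc10a1. Dashed lines mark 1.5-fold. The 6 genes left of the lower line in females lie between 0.03 and 0.71 in males.

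In females, 6 of the 10 genes were more than 1.5-fold lower on MF (Cyp8b1, Cyp27a1, Baat, Slc27a5, Nr1h4 and Nr0b2), against 21.1% of the 25538 genes compared. One gene, Slc10a1, was more than 1.5-fold higher, against 19.9% of all genes. The median difference of the 10 genes was -0.69, and that of all genes -0.06. In males, 1 gene was higher (Baat, against 17.7% of 26315 genes) and 0 were lower (against 23.1%), with a median of 0.17 beside -0.01 for all genes. Where a gene had more than 1 probe the brightest stood for it. Before the spatial correction, 4 of the 10 genes were lower in females (Cyp8b1, Cyp27a1, Baat and Nr0b2), against 22.6% of all genes. At that setting 1 was higher (Hsd3b7), against 19.3%. In males 2 were then lower (Nr1h4 and Nr0b2, with values near -0.75), against 29.7% of all genes. Without any scaling 8 of the 10 genes were higher in males, against 44.8% of all genes.

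**Figure D4:**
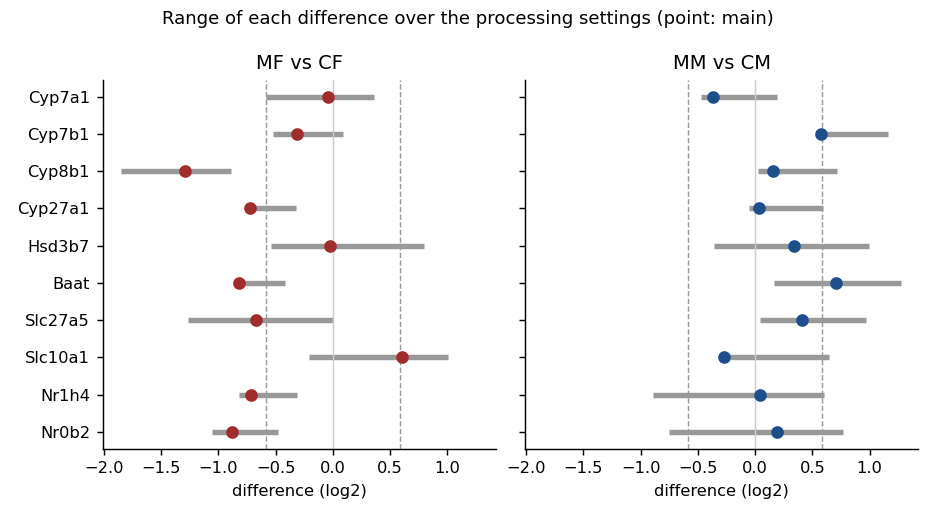
Range of the difference of each gene over the processing settings (grey bar) with the value reported as a point, for females on the left and males on the right, in log2 units. Dashed lines mark 1.5-fold. In females the bars of Cyp8b1, Cyp27a1, Baat, Slc27a5, Nr1h4 and Nr0b2 lie below 0 over their whole length, that of Slc27a5 ending at -0.00065 by its dimmer probe, and in males 6 of the 10 bars cross 0.

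A difference between M and C common to both sexes was tested with limma, with gender as a covariate and 1 residual degree of freedom. The fit covered the 19303 genes whose probe was well above background everywhere. None of the 10 genes had an adjusted p under 0.05 (0.0% of all genes passed), and none had an unadjusted p under 0.05 (4.42% of all genes). The smallest p was that of Cyp8b1, a mean difference of -0.57 ± 0.49 (SE) with an adjusted p of 0.995 by limma with Benjamini-Hochberg adjustment. On simulated arrays with this spread, 0 of 200 genes raised by 2 log2 units and 199 of 200 raised by 4 were called.

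The pathway around these genes was read through 5 lists. Over all genes compared, 19.9% were more than 1.5-fold higher and 21.1% lower in females, and 17.7% and 23.1% in males. Cholesterol synthesis, the supply of the substrate, was higher in M in both sexes. Of 23 genes measured, 20 were more than 1.5-fold higher and 0 lower on MF, with a median difference of 1.77, and 20 were higher and 1 (Tm7sf2) lower on MM, with a median of 0.89. Over the settings tried the number higher ran from 19 to 21 in females and from 14 to 21 in males. Sqle (squalene epoxidase) was 2.94-fold higher in females and 3.33-fold in males, Lss (lanosterol synthase) 4.50-fold and 4.78-fold, and Cyp51 (lanosterol demethylase) 4.10-fold and 8.0-fold. Other genes of this list past 1.5-fold in both sexes that ranked among the 20 largest were Hmgcs1, Mvk, Pmvk, Mvd, Fdps, Sc4mol, Sc5d, Acat2 and Insig1. In these same livers the rate-limiting Cyp7a1 differed by -0.05 and -0.37. Over the settings tried its difference ran from -0.59 to 0.36 in females and from -0.48 to 0.19 in males.

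For side chain shortening in peroxisomes the sexes gave opposite medians. In females 6 of 9 genes measured were lower and 2 higher, with a median of -0.76, and in males 0 were lower and 4 higher, with a median of 0.33. Over the settings tried these medians ran from -1.13 to -0.36 and from 0.23 to 0.89. The genes lower in females, named here after their values were seen, were Amacr (the racemase of the side chain, -1.15), Pex5 (the import receptor, -0.90), Acot8 (a thioesterase, -0.88), Pxmp3 (a peroxisome assembly factor, -0.85), Slc27a2 (an acyl-CoA synthetase, -0.76) and Abcd3 (a peroxisomal transporter, -0.71). Of these, Acot8 was higher in males by 1.08 and Slc27a2 by 0.82. Scp2, the thiolase and sterol carrier, was higher by 0.90 in females and 0.77 in males, and Acaa1b, a thiolase, by 1.69 and 1.24.

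Among the enzymes of other sterol branches, 2 of 6 genes were higher and 1 lower in females, and 4 of 5 genes compared were higher in males. Akr1c6, a hydroxysteroid dehydrogenase, was 3.18-fold higher in females and 3.52-fold in males. Cyp39a1, the oxysterol 7-alpha-hydroxylase that acts on 24-hydroxycholesterol, differed by -0.61 in females and 1.66 in males. Cyp46a1, which makes 24-hydroxycholesterol, differed by -0.22 and 1.56, and Akr1d1, the 5-beta-reductase of bile acid synthesis, by 0.06 and 1.18. These 3 were named after their values were seen.

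Of the transporters, 3 of 11 genes compared were higher and 3 lower in females, and 5 of 11 higher and 1 lower in males. Abcg5 and Abcg8, which together export sterols into bile, were 4.31-fold and 2.26-fold lower on MF, at levels of 1.46 against 3.57 and -1.68 against -0.50, and differed by 0.03 and 0.08 in males. As for Cyp8b1, the control female array was above the other 3 for both. Ostb, a subunit of the basolateral bile acid exporter, was 3.81-fold higher in females and 3.05-fold in males. Its partner Osta was at -0.21 on MF and -4.03 on CF and not well above background on either male array. Of the enterocyte markers described below, 5 of 8 genes compared were also higher and 0 lower on MF. Whether Osta came from such cells was not tested. Slco1a1, an organic anion uptake carrier, was at least 10.4-fold higher on MF and at least 1.66-fold higher on MM, bounds against the lowest signal well above background, because the probe was not well above background on the control arrays. The only probe of Abcb11, the bile salt export pump, was left out because of an outlier flag. Abcg5, Abcg8, Osta and Abcb11 were named after their values were seen.

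Of 20 regulators, 2 were higher and 4 lower in females, and 3 of 19 compared were higher and 3 lower in males, with medians of 0.02 and 0.01. With the processing used here this share was below that of all genes in each direction and sex (19.9% higher and 21.1% lower in females, 17.7% and 23.1% in males). Over the settings tried the number higher ran from 0 to 8 in females and from 2 to 9 in males. The number lower ran from 0 to 5 and from 1 to 4. Under some settings the share exceeded that of all genes, as with 8 of 20 higher in females without scaling, against 35.8%. Nr5a2 (LRH-1) had a level of -0.65 on MF, 0.16 on CF, 0.41 on MM and 0.23 on CM, which is 1.76-fold lower on MF than on CF, and like Nr1h4 and Nr0b2 it was lowest on MF. Also lower in females were Nr1i2 (PXR), by -0.92 beside 0.05 in males, Foxa2, by -0.83 beside 0.93 in males, and Prox1, by -0.70 beside -0.93 in males. Hnf4a, which activates many hepatocyte genes, was higher by 0.64 in females and 1.01 in males. Fgfr4 and its partner Klb, through which intestinal Fgf15 represses Cyp7a1, differed by -0.17 and 0.01 in females and by -0.10 and -0.54 in males. Fgf15 itself was at -5.09 on MF and not well above background on the other 3 arrays. Apart from the members, the regulators named here were chosen after their values were seen.

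**Figure D5:**
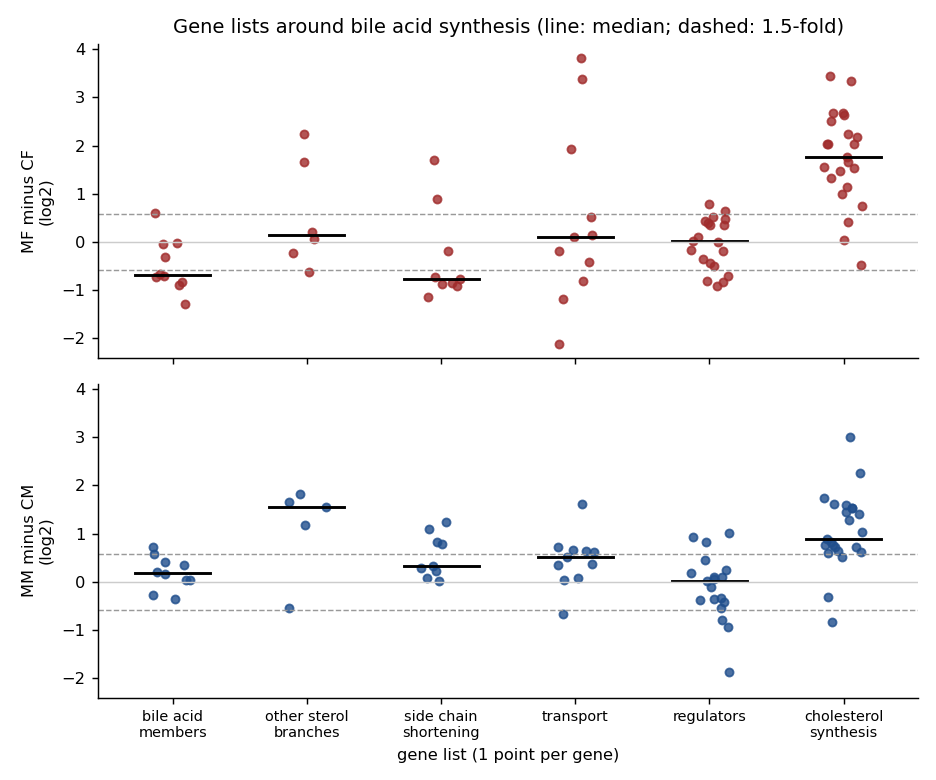
Difference between microsomic and control (log2) for each gene of the members and of the 5 lists, females in the upper panel and males in the lower one. Each point is a gene, the black line is the median of the list and dashed lines mark 1.5-fold. The median of cholesterol synthesis lies above 0 in both panels, with 1 gene under 0 in females and 2 in males, and side chain shortening has a median of -0.76 in females and 0.33 in males.

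Nr5a2 acts on both Cyp8b1 and Nr0b2, for which the 100 bases before the start of the gene are shown, from RefSeq (GRCm38.p6). Whether Nr5a2 had a part in their differences was not tested. Capitals mark the 6-base core bound by Nr5a2, searched as TCAAGG or CCAAGG on both strands. The Cyp8b1 stretch is chr9:121916306-121916405 on the minus strand and the Nr0b2 stretch chr4:133553276-133553375 on the plus strand.

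Cyp8b1: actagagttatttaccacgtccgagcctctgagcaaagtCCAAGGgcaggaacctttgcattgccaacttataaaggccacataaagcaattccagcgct
Nr0b2: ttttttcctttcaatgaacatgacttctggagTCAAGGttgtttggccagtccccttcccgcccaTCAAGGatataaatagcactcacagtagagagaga

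Counted back from the start of the gene, where -1 is the last base shown, a core begins at -61 in Cyp8b1 and at -68 and -35 in Nr0b2. In the same window 11.8% of the 32851 promoters hold at least 1 core. Of the 10 genes, 6 had a promoter in the table, and the windows of the other 4 (Cyp27a1, Hsd3b7, Nr1h4 and Slc10a1) hold none. Over the 250 bases before the start, 3 of these 6 genes and 28.3% of all promoters hold a core. A match of letters is a description of the sequence and no evidence of binding.

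The livers were checked against markers of the cell types they could hold. Hepatocyte genes were bright on all 4 arrays, with levels of 9.63 to 10.62 for Alb, and the sum of the list on the linear scale, in units of the 75th percentile, was 7096 on MF, 6663 on CF, 4624 on MM and 6670 on CM. Their median difference was 0.22 in females, where 6 of the 10 bile acid genes were lower, and -0.61 in males. Enterocyte genes stood out on MF. Their sum was 69.9 on MF, 7.41 on CF, 31.8 on MM and 6.55 on CM, with 5 of 8 genes compared higher in females. Fabp2 made up most of this sum on all 4 arrays. In males 2 of 7 genes compared were higher and 4 lower, with a median of -0.998. The lactase gene Lct was 72.6-fold higher on MF than on CF and Vil1 20.9-fold, and Cdx2 at least 38.9-fold. Of the ileal genes in the list, Fgf15 was well above background on MF, at -5.09, and Fabp6 and Slc10a2 were not. Fabp2 was higher in both sexes, 8.85-fold and 5.22-fold. Granulocyte genes summed to 1926 on MF, 930 on CF, 961 on MM and 1265 on CM, and macrophage genes to 219, 92.6, 110 and 87.0, with 7 of 8 and 6 of 7 genes higher on MF. Erythroid genes summed to 2268 on MF, 3028 on CF, 1687 on MM and 2632 on CM. The bright globins Hbb-b1 and Hba-a1 set most of this sum and differed by -0.68 and -0.54 in females, where 2 of the 9 erythroid genes were higher and 2 lower. Cholangiocyte genes summed to 8.57, 8.84, 8.10 and 13.1, endothelial genes to 42.3, 51.9, 38.0 and 39.4, and pancreatic genes to 2.28, 0.68, 0.70 and 1.10, in the same order. The sex-linked genes well above background matched the labelled gender on all 4 arrays. The part of these other cell types in the female differences was not tested, and in whole liver fewer cells of a type and less RNA per cell cannot be told apart.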

How the data were processed

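Liver RNA was labelled with Cy3 and hybridised to Agilent SurePrint G3 Mouse GE arrays by the authors. The deposited values are intensity readings of Agilent Feature Extraction 10.7.3.1, whose processed signal is background-subtracted and corrected for position on the array, and the deposited value table equals it, within 0.0001, in all 62976 spots of each array. From these deposited intensities log2 levels were computed, relative to each array's 75th percentile over its 59305 spots that were not controls. The 1754 spots that any array flagged as outliers were removed, spots of a probe averaged, and the brightest probe stood for a gene. Genes well above background on at least 1 array of a pair were compared and counted past 1.5-fold, the fold of the study's methods. A probe well above background on 1 array only has a bound, against the higher of its own level and the lowest level well above background on the other array. limma 3.58.1 (R 4.3.3) tested M against C over all 4 arrays after a test on simulated data. With 1 array per group, the number of arrays limits the precision. The methods state 3 independent replicate experiments per group, and 1 array of each group was analysed here.

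The 10 genes and the gene lists were chosen with earlier results of these data known. List genes named were those past 1.5-fold the same way in both sexes, at most 20 by the smaller difference, all genes of the 10, and others said to be named after their values were seen. Values of some list genes are not reported here. Alternatives were the median, quantile, normexp and unscaled settings, trends of GC content and position, spot flags, the mean over probes, other filters and a 2-fold limit. The other probes of Slc10a1 and Slc27a5 and the signal before the spatial correction were added after seeing the data. Python 3.11.15, pandas 2.3.3 and matplotlib 3.10.9 were used.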

Additional observations from a re-analysis of the deposited data

Results flagged for a closer look

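Baat was the only one of the 10 genes past 1.5-fold in opposite directions, with a difference of -0.82 between MF and CF and of 0.71 between MM and CM on the log2 scale. With 1 array per group the difference between the sexes was not tested. Over the settings tried the female value ran from -0.82 to -0.42 and the male value from 0.17 to 1.27.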

How the results depend on the processing

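In females 5 of the 6 lower genes kept a negative difference under the 7 settings that changed their values, the highest values being -0.89 for Cyp8b1, -0.32 for Cyp27a1, -0.42 for Baat, -0.31 for Nr1h4 and -0.48 for Nr0b2. Slc27a5 reached -0.00065 by its other probe, with which 5 of the 10 genes were lower, against 21.1% of all genes. The number lower was 1 without scaling (against 9.2% of all genes), 3 after removal of the GC trend (15.9%) and 1 at 2-fold. Without scaling the median of the 10 genes was -0.29. The number higher was 0 under quantile (against 17.6% of all genes), normexp with quantile (14.6%) and the mean over probes (17.0%). It was also 0 with the 2-fold limit and with the other Slc10a1 probe (19.9%). Slc10a1 reversed to -0.21 under quantile and to -0.21 under normexp with quantile. In males the number higher was 3 with median centring (against 27.4% of all genes), 2 under quantile (21.2%) and 2 under normexp with quantile (24.5%). It was 8 without scaling (44.8%), 4 after removal of the GC trend (31.8%) and 5 after removal of the position trend (34.8%). At 2-fold it was 0, and with the other Slc10a1 probe 2 (17.7%). The number lower in males was 2 under normexp with quantile (against 22.7% of all genes) and 2 before the spatial correction (29.7%). The male median was 0.73 without scaling, 0.51 without the GC trend and 0.59 without the position trend. The cause was not tested, except that without scaling the median of all genes was itself 0.34 in females and 0.52 in males. The other settings put that median between -0.12 and 0.08 in females and between -0.05 and 0.34 in males. Leaving out 112 values of single genes that a setting left identical, 92 moved by less than the technical SD, 54 moved by more and 2 reversed. No setting gave a member an adjusted p under 0.05 in limma, while over all genes it called 10 without scaling, 55 after removal of the position trend and 15 before the spatial correction. No paired analysis was possible because each group held 1 array. For the same reason no array could be left out.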
